A study of Mus musculus with 12 samples.

Results

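The genes of MHC class I antigen presentation and peptide loading were followed in bone marrow cells exposed to indole-3-propionic acid (IPA), a tryptophan metabolite made by gut bacteria. The 10 genes were picked by symbol from the table of counts and are H2-K1, H2-D1, H2-T23, B2m, Tap1, Tap2, Tapbp, Psmb8, Psmb9 and Nlrc5. They are 10 of the 54532 genes in the table, and all 10 were among the 14894 genes tested, which are those with more than 0.5 CPM (the reads of a gene scaled to a fixed total per library) in 2 or more of the 12 libraries. Bone marrow cells of WT C57BL/6 mice were cultured with GM-CSF and IL-6, a pair of cytokines that drives them towards myeloid cells, and were harvested at day 5. There were 4 libraries with vehicle (DMSO), 4 with 10 µM IPA and 4 with 50 µM IPA, and all 3 groups received the same cytokines. The paper calls the higher dose supraphysiological and reports slightly reduced viability with it in such cultures. For that reason its authors focused on the lower dose. The part of reduced viability in the differences seen here at the higher dose was not tested. The study's methods describe its C57BL/6 mice as young adult females, with no separate statement for these cultures. It is not stated whether replicates came from separate cultures or mice, so the p-values measure the spread between these samples only. The cultures are a mixed population that was not sorted.

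MHC class I molecules show fragments of a cell's own proteins to CD8+ T cells. A heavy chain folds with the light chain β2-microglobulin and with a peptide that the proteasome has cut and the TAP transporter has carried into the endoplasmic reticulum. In cells exposed to interferon, inducible catalytic subunits take the place of standard ones in the proteasome, and NLRC5 is the transactivator that drives heavy chain, light chain, transporter and inducible subunit genes through a conserved promoter module. Myeloid cells carry class I molecules on their surface and can load them with peptides from engulfed material as well as with their own.

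By the GENCODE annotation of GRCm38, 8 of the 10 genes lie on chromosome 17, in the MHC, between position 33915899 (the start of Tapbp) and position 36032855 (the end of H2-T23). B2m lies on chromosome 2 and Nlrc5 on chromosome 8. The promoter module of class I genes is known for an interferon response element, an X2 element that resembles a cAMP response element, and a Y box. RefSeq windows of 300 bases around the start site (GRCm38.p6) were at hand for 8 of the 10 genes. The 250 bases before the start are shown for 5 of them and for H2-Q7, a class I heavy chain gene outside the 10 that rose at 50 µM, because they let the module be compared between genes that did and did not change. Capitals mark matches, on either strand, to TTTCNNTT (the core of an interferon response element), TGACG (the X2 core) or CCAAT (the Y box), and each sequence is written 5′ to 3′ on the strand of its gene.
H2-K1 (chr17:34000334-34000583, - strand): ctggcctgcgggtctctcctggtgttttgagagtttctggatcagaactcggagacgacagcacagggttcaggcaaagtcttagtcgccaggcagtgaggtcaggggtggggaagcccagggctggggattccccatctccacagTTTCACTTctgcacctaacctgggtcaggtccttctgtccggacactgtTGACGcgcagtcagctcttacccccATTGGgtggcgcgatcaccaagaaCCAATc
H2-D1 (chr17:35262844-35263093, + strand): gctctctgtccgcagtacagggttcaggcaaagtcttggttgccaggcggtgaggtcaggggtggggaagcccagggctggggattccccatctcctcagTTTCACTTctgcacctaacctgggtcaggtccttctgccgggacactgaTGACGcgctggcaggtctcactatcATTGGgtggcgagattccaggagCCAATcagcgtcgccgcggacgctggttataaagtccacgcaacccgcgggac
H2-T23 (chr17:36032702-36032951, - strand): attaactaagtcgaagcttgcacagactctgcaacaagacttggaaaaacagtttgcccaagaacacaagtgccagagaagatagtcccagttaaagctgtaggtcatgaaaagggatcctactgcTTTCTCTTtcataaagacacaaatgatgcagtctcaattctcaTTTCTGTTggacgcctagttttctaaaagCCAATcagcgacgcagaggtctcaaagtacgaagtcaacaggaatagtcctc
B2m (chr2:122147437-122147686, + strand): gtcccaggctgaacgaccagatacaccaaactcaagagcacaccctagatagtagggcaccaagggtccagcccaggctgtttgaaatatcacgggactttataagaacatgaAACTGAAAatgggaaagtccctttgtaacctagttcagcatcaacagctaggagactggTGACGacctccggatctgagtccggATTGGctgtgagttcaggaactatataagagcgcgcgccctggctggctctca
Tap1 (chr17:34187306-34187555, + strand): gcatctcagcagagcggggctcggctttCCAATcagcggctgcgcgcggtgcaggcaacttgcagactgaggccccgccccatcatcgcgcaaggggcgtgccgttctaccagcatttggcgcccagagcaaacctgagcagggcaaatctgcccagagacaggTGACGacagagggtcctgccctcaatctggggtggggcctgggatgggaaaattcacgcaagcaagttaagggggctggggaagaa
H2-Q7 (chr17:35438905-35439154, + strand): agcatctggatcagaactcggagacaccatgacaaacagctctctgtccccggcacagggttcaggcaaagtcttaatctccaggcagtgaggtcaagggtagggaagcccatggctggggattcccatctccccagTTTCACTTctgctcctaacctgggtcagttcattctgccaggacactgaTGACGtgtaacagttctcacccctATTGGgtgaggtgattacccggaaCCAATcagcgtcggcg

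H2-K1, H2-D1, B2m and H2-Q7 hold all 3 kinds of match in the same order. H2-Q6, which also rose at 50 µM, has no TGACG in its window, and H2-M2, which was lower at 50 µM, holds all 3 kinds with TGACG first. H2-T22, which was higher at 50 µM, holds all 3 kinds with TGACG last. H2-T23 has 2 matches to the interferon-type core and 1 Y box, and TGACG is not in its window. In Tap1 the Y box stands first. Tap1 and Psmb9 are read in opposite directions from a common stretch, and their windows cover the same 275 bases of the genome. The CCAAT and TGACG matches of Tap1 and Psmb9 are the same sites, so each site counts for both genes in the shares that follow. Over the 8 windows, CCAAT was in 7, against 37.4% of the windows of 32544 starts of genes, TGACG in 5 (20.9%) and TTTCNNTT in 4 (23.9%). TTCNNNGAA, the letters that STAT factors bind, was in 1 of the 8 (Psmb8), against 8.33% of all windows, and GGGNNTTCC, a κB-type site, in 2 (H2-K1 and H2-D1), against 5.85%. The κB-type match does not overlap the marked ones. A match of letters is a description of the window only.

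Libraries held 20451312 to 28038612 counted reads. The labelled culture was checked against marker lists. All 5 markers of myeloid cells were present, with a summed level of 4310 to 5110 CPM in vehicle, 4710 to 4900 CPM at 10 µM and 5160 to 5900 CPM at 50 µM, above both other groups, and 8 neutrophil markers summed to 14000 to 28200 CPM. NK cell markers summed to at most 0.587 CPM and erythroid markers to at most 1.15 CPM, with Gzma at 0 in every vehicle and every 50 µM library. T cell markers summed to 2.16 to 5.63 CPM and mast cell and basophil markers to 109 to 165 CPM. Stromal and endothelial markers summed to 42.3 to 55.4 CPM in vehicle, 57.3 to 68.2 CPM at 10 µM and 41.8 to 49.7 CPM at 50 µM, the 10 µM libraries lying above both other groups. Of these sums, Pecam1 alone made up 38.2 to 52.7, 54.5 to 65.6 and 39.9 to 48.2 CPM. Col1a1, Col3a1 and Cdh5 were at or under 3.745, 0.567 and 1.02 CPM in every library. In 1 library of each group, vehicle replicate 4, 10 µM replicate 1 and 50 µM replicate 3, short transcripts had relatively more reads. The slope of log2 counts on log2 exon length was −0.0699, −0.0649 and −0.0697 in these 3 libraries and −0.0194 to 0.0635 in the others. Of the 10 genes, 7 (H2-K1, H2-D1, H2-T23, B2m, Tap1, Psmb8 and Psmb9) were highest in exactly that library in all 3 groups, as were 8.71% of all genes tested. Where leaving out these 3 libraries changed a call of a gene named below, the value without them is given.

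**Figure D1:**
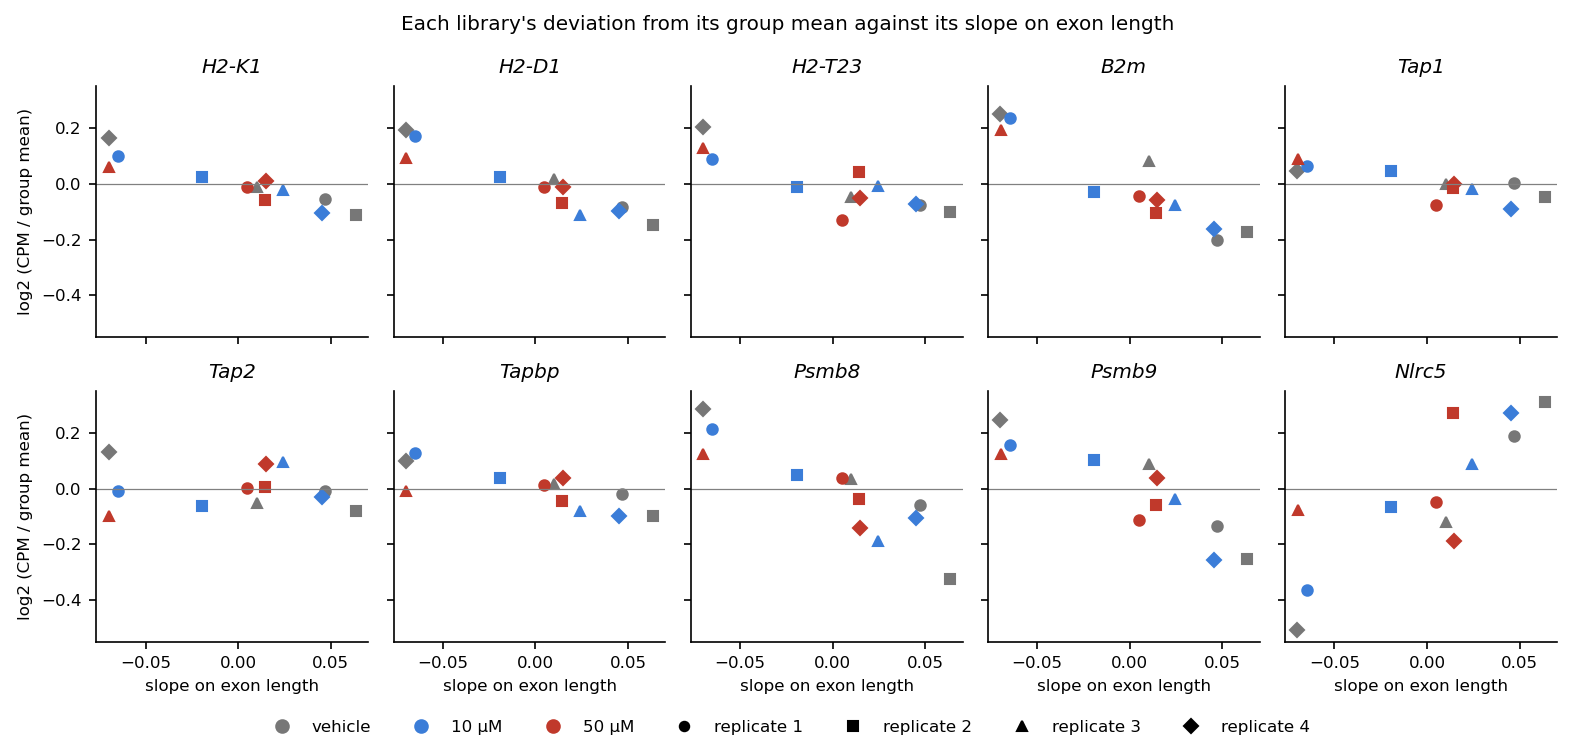
Deviation of each library from its group mean (log2 of CPM over the group's mean CPM, y axis) against the library's slope of log2 counts on log2 exon length (log2 per doubling of length, x axis), for the 10 genes in 4 vehicle (grey), 4 10 µM (blue) and 4 50 µM (red) libraries. In 7 of the 10 genes the 3 libraries at the left, with slopes near −0.07, are the highest of their groups, while Nlrc5 has the opposite slope.

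The 10 genes differed widely in level. Per length, B2m, the light chain shared by all class I molecules, led with 1035 ± 156 RPKM (CPM per kilobase of exon, mean ± SD, n = 4) in vehicle. The heavy chains followed, H2-D1 with 295 ± 30.9 RPKM and H2-K1 with 175 ± 14.9 RPKM, and then Tapbp (tapasin, which bridges heavy chain and transporter) with 70.5 ± 3.96 RPKM. H2-T23, Psmb8 and Tap2 lay close together at 26.3, 26.3 and 21.3 RPKM, and the libraries of H2-T23 overlapped those of Psmb8, as did those of Psmb8 and Tap2. Tap1 had 16.5 ± 0.437 RPKM, Psmb9 had 12.4 ± 1.92 RPKM and Nlrc5 had 1.93 ± 0.459 RPKM. With IPA the order was the same, except that Psmb8 (28.6 RPKM) stood just above H2-T23 (28.5 RPKM) at 10 µM, with overlapping libraries.

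At 10 µM, none of the 10 genes passed the test (edgeR's quasi-likelihood test with Benjamini-Hochberg adjustment over all 14894 genes, threshold 0.05), as against 0.41% of all genes (0.329% higher, 0.0806% lower). None had an unadjusted p under 0.05 (8.78% of all genes did), and DESeq2 and limma-voom also called 0 of the 10 (1.86% and 0.423% of genes tested). In none of the 10 did the 10 µM libraries lie wholly apart from vehicle, as they did in 6.13% of all genes (3.57% higher, 2.56% lower). The log2 fold changes against vehicle ran from −0.085 in Tap2 to 0.18 in B2m, 9 of the 10 were above 0, as were 48.2% of all genes, and their median was 0.10 against −0.0064 over all genes. At 50 µM, H2-T23 rose and the other 9 genes did not pass, and 13.5% of all genes passed, 7% as higher and 6.5% as lower. Of the 10 genes, 3 had an unadjusted p under 0.05 (27.9% of all genes) and 8 a log2 fold change above 0 (51.8%). The median of the 10 log2 fold changes was 0.11 against 0.012 over all genes. Between the doses, B2m was lower at 50 µM than at 10 µM and the other 9 genes did not pass, against 15.4% of all genes (7.85% lower). Here 3 of the 10 had an unadjusted p under 0.05 (29.5% of all genes) and 6 a log2 fold change above 0 (51.4%). The comparisons against vehicle share the vehicle libraries, and both with 50 µM share those libraries. These are bulk samples, in which a larger share of cells that carry a transcript and more of it per cell cannot be told apart.

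**Figure D2:**
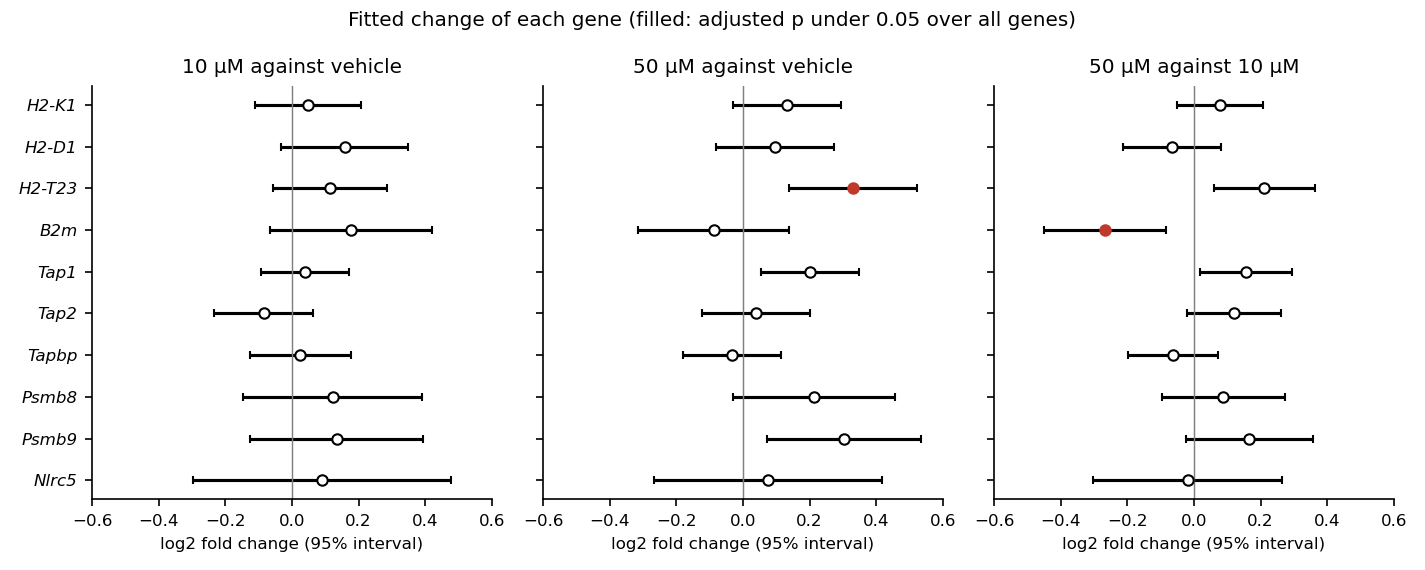
Fitted log2 fold change of each of the 10 genes with its 95% interval (x axis) for each IPA dose against vehicle and for the higher against the lower dose, 4 libraries a group. Filled points passed an adjusted p of 0.05 over all genes, which were H2-T23 in the second panel (0.33) and B2m in the third (−0.27).

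H2-T23 encodes the heavy chain of Qa-1, a non-classical class I molecule that shows leader peptides of other heavy chains to an inhibitory receptor of NK cells and T cells. Its levels were 72.1, 71.0, 73.7 and 87.6 CPM in the vehicle libraries (replicates 1 to 4), 87.7, 81.8, 81.8 and 78.3 CPM at 10 µM, and 87.1, 97.9, 104 and 91.9 CPM at 50 µM. The vehicle replicates 1 to 3 lay below every other library, and vehicle replicate 4 lay just above the lowest 50 µM library. The log2 fold change at 50 µM was 0.33 (SE 0.089, 95% interval 0.14 to 0.52, edgeR adjusted p = 0.0253), a rise of 25.7%. The level at 10 µM lay between the other two, with log2 fold changes of 0.12 against vehicle (adjusted p = 0.775, edgeR) and 0.21 for 50 µM against 10 µM (adjusted p = 0.0566, edgeR). The difference between the doses passed in 6 of the 18 alternatives, DESeq2 (adjusted p = 0.0324) and the omission of 10 µM replicate 1 or 50 µM replicate 1 (adjusted p = 0.0372 and 0.0341, edgeR) among them. The call at 50 µM was lost without vehicle replicate 1, 2 or 3 or without 50 µM replicate 2, 3 or 4, where the adjusted p lay between 0.0512 and 0.0817 and the log2 fold change between 0.28 and 0.35. It held without vehicle replicate 4 (0.41), without 50 µM replicate 1 and in each of the other 10 alternatives, including that without the 3 libraries of low slope.

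H2-K1 and H2-D1 encode the classical heavy chains K and D. H2-K1 had 495, 476, 510.0 and 577 CPM in vehicle, 569.9, 540.2, 523 and 495 CPM at 10 µM, and 556, 539, 584 and 564 CPM at 50 µM. Only vehicle replicate 4 kept the vehicle group from lying below every 50 µM library, and the log2 fold change at 50 µM was 0.13 (95% interval −0.03 to 0.29, edgeR adjusted p = 0.278). H2-D1 had 719, 688, 769.6 and 869.9 CPM in vehicle, 955, 864, 785 and 794 CPM at 10 µM, and 803, 771, 863 and 803 CPM at 50 µM, and the 3 groups overlapped. Its log2 fold changes were 0.16 at 10 µM (95% interval −0.032 to 0.35) and 0.096 at 50 µM (95% interval −0.081 to 0.27). With 1 library left out, H2-D1 ran from 0.0972 to 0.228 at 10 µM and from 0.0431 to 0.167 at 50 µM, and it never passed. The intervals of both classical chains at 50 µM thus reached from just below 0 to rises under 0.30 on the log2 scale.

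B2m had 774, 790.1, 940.5 and 1057 CPM in vehicle, 1185, 985, 956 and 900.5 CPM at 10 µM, and 808, 775, 951 and 800.4 CPM at 50 µM. The libraries at 50 µM lay below those at 10 µM except for 50 µM replicate 3, one of the 3 libraries of low slope, which exceeded 10 µM replicate 4. The difference between the doses was −0.27 on the log2 scale (SE 0.086, 95% interval −0.45 to −0.085, edgeR adjusted p = 0.0466). Against vehicle it was 0.18 at 10 µM (adjusted p = 0.745, edgeR) and −0.088 at 50 µM (adjusted p = 0.637, edgeR), and neither passed, although the latter did with the length slope as a covariate (−0.155, adjusted p = 0.0264, edgeR). The difference between the doses was lost when all 12 libraries entered 1 fit (adjusted p = 0.103, edgeR) and without 10 µM replicate 1, 2 or 3 or 50 µM replicate 1, 2 or 4, with adjusted p between 0.0623 and 0.136. Without 10 µM replicate 1, the highest library, it was −0.18 (adjusted p = 0.129, edgeR). Without the 3 libraries of low slope it was −0.25 and passed (adjusted p = 0.00704, edgeR).

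**Figure D3:**
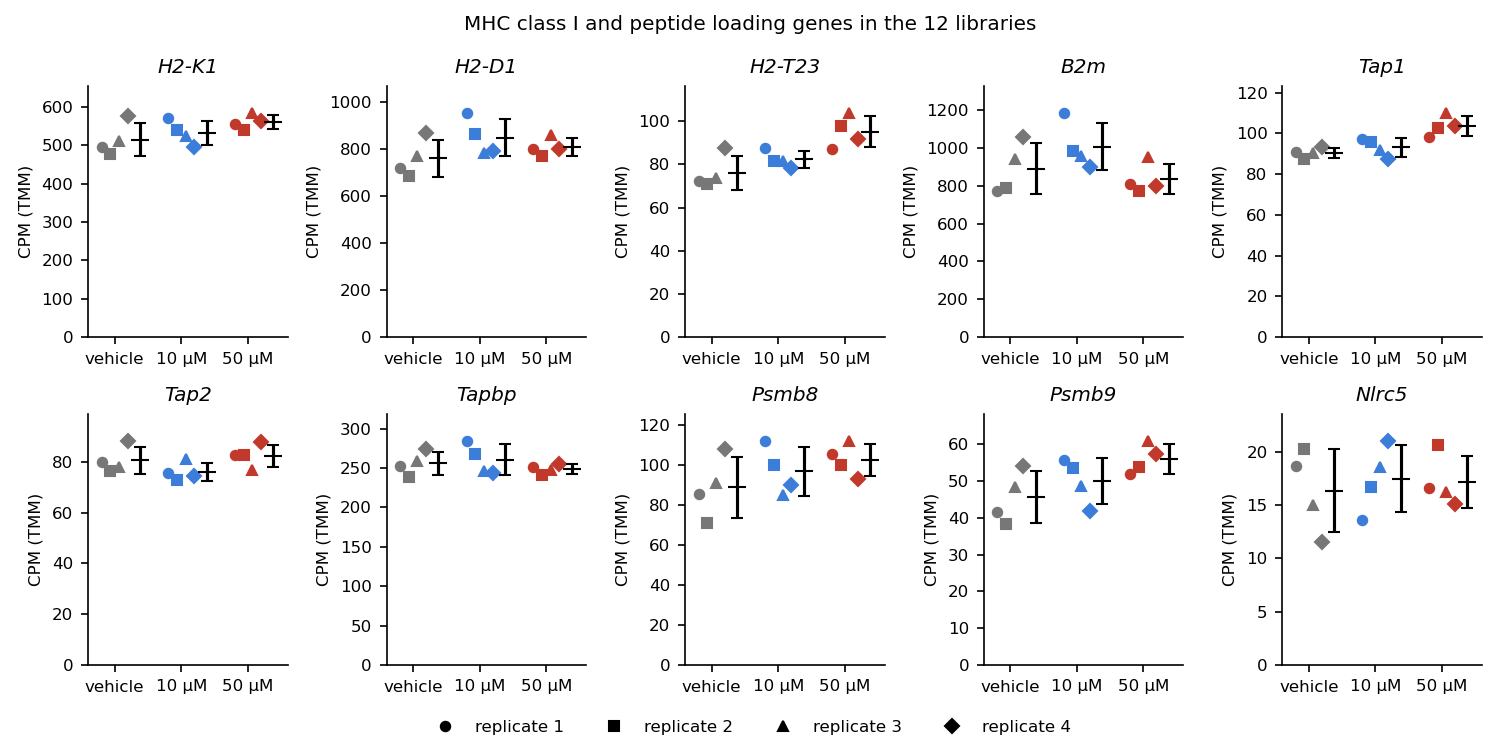
CPM (TMM-scaled, linear y axis from 0) of each of the 10 genes in the 12 libraries by dose of IPA (x axis), with the mean and SD of each group (n = 4) beside the points and 1 marker shape for each replicate number. The 50 µM libraries of Tap1, 98.3 to 110.0 CPM, lie above all others, and those of Nlrc5 lie within the range of vehicle apart from 1 at 20.7 CPM.

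Tap1 and Tap2 encode both chains of the peptide transporter. Tap1 had 90.7, 87.5, 90.5 and 93.4 CPM in vehicle, 97.2, 95.9, 91.7 and 87.4 CPM at 10 µM, and 98.3, 102, 110.0 and 104 CPM at 50 µM. It was the only one of the 10 genes whose 50 µM libraries all lay above the vehicle libraries, which 9.45% of all genes did, and above the 10 µM libraries, which 9.43% did. The log2 fold change of Tap1 at 50 µM was 0.20 (95% interval 0.055 to 0.35) and missed the threshold (adjusted p = 0.0676, edgeR), and it passed in 6 of the 18 alternatives, DESeq2 (adjusted p = 0.0333) and the omission of vehicle replicate 4 (adjusted p = 0.0395, edgeR) among them. Tap2 had 76.4 to 88.3 CPM in vehicle, 72.8 to 81.2 CPM at 10 µM and 77.0 to 87.7 CPM at 50 µM, with a log2 fold change of 0.039 at 50 µM (95% interval −0.12 to 0.20). Tapbp had 239 to 274, 243 to 285 and 241 to 255 CPM, with log2 fold changes of 0.026 at 10 µM and −0.033 at 50 µM, and the 50 µM libraries fell inside the range of vehicle. The exons of Tap1 and Psmb9 overlap by 212 bases on opposite strands, and the strand setting of the counting is not given in the sources used here. Larger exon overlaps on opposite strands were those of Tapbp with Gm19412 (904 bases), Tap2 with Gm15821 (533 bases) and Psmb8 with Gm20496 (498 bases).

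Psmb8 and Psmb9 encode inducible catalytic subunits of the proteasome. Psmb9 had 41.5, 38.3, 48.4 and 54.0 CPM in vehicle, 55.7, 53.6, 48.7 and 41.9 CPM at 10 µM, and 51.8, 53.8, 60.9 and 57.4 CPM at 50 µM, so that 1 vehicle library reached into the 50 µM range. The log2 fold change of Psmb9 at 50 µM was 0.30 (SE 0.11, 95% interval 0.073 to 0.54, edgeR adjusted p = 0.0802). Psmb8 had 71.1 to 108 CPM in vehicle, 84.8 to 112 CPM at 10 µM and 93.1 to 112 CPM at 50 µM, with a log2 fold change of 0.21 at 50 µM (95% interval −0.029 to 0.46, edgeR adjusted p = 0.241). Neither gene passed. Vehicle replicate 4, a library of low slope, was the highest vehicle library of both, and without it the fits for 50 µM gave 0.40 for Psmb9 (adjusted p = 0.00825, edgeR) and 0.32 for Psmb8 (adjusted p = 0.0228, edgeR). In the other 7 fits that left out a library neither passed, and the values fell as low as 0.22 for Psmb9 and 0.11 for Psmb8, both without vehicle replicate 2 (adjusted p = 0.165 and 0.477, edgeR). Without the 3 libraries of low slope they were 0.35 (adjusted p = 0.0169, edgeR) and 0.28 (adjusted p = 0.0479, edgeR), and both passed. Without vehicle replicate 4 alone, 5 of the 10 genes passed at 50 µM, H2-K1 and Tap1 also among them, and 18.1% of all genes did in the same fit.

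The ratio of an inducible subunit to the standard subunit it replaces was taken within each library, which needs no scaling between libraries. Psmb8 stood at 1.29 to 1.55 times the counts of Psmb5 in vehicle, 1.27 to 1.39 times at 10 µM and 1.26 to 1.44 times at 50 µM. Psmb9 stood at 0.382 to 0.437, 0.374 to 0.465 and 0.401 to 0.472 times Psmb6, and Psmb10, the remaining inducible subunit, at 0.751 to 0.915, 0.797 to 0.909 and 0.755 to 0.831 times Psmb7. These ratios of counts are not scaled for exon length, so they serve to compare groups and not the levels of the subunits. Per length, the vehicle means were 26.3 RPKM for Psmb8 and 71.7 RPKM for Psmb5. They were 12.4 RPKM for Psmb9 and 58.3 RPKM for Psmb6, and 27.1 RPKM for Psmb10 and 16.3 RPKM for Psmb7. The groups overlapped in every ratio. Over 9 two-sided exact permutation tests of the log2 ratios (4 against 4, smallest possible p = 0.0286), the smallest p was 0.0571, for Psmb10 over Psmb7 between the doses (difference −0.14, SE 0.055, adjusted p = 0.514). With this smallest possible p and 9 tests, a difference in any ratio on its own could not pass after adjustment. The adjusted p thus cannot decide whether a ratio shifted. The standard subunits Psmb5, Psmb6 and Psmb7 had log2 fold changes of 0.25, 0.28 and 0.13 at 50 µM, and none of them passed (adjusted p = 0.0865, 0.0801 and 0.288, edgeR). Without vehicle replicate 4, Psmb5 and Psmb6 passed (adjusted p = 0.032 and 0.00953, edgeR), and without the 3 libraries of low slope Psmb6 did (0.27, edgeR adjusted p = 0.0119). All 11 of the other subunits of the 20S core had a log2 fold change above 0 at 50 µM, with a median of 0.16 (51.8% of all genes were above 0), and 1 of them, Psma3, passed (0.36, edgeR adjusted p = 0.0465), against 7% of all genes called higher. The Psma3 call was lost in 7 of the 8 fits that left out a library, all but that without vehicle replicate 4, with adjusted p up to 0.139. Between the doses Psma3 did not pass (0.24, edgeR adjusted p = 0.168), except in 4 of the 18 alternatives, that without the 3 libraries of low slope among them (0.28, edgeR adjusted p = 0.0123).

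**Figure D4:**
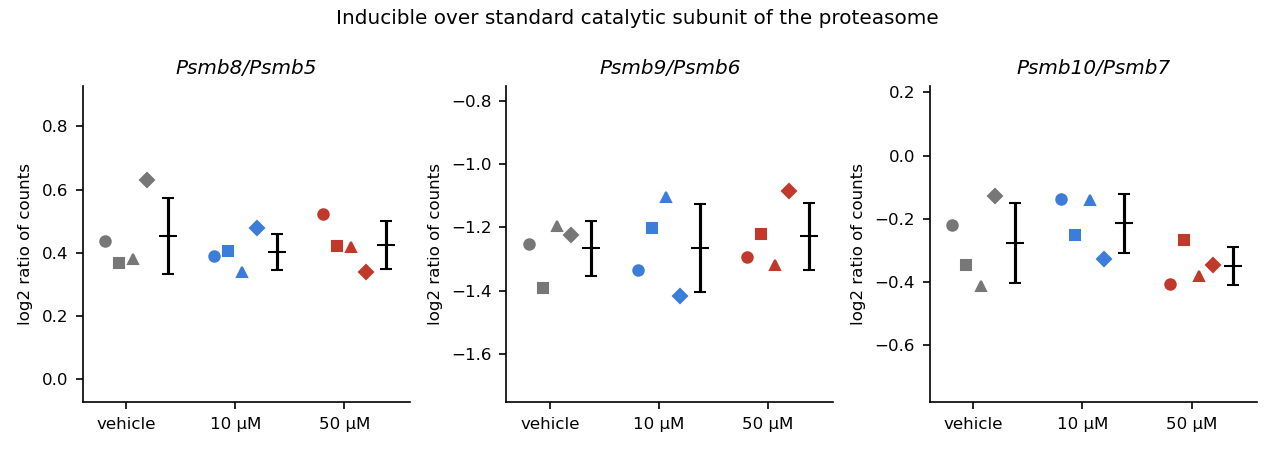
Log2 ratio of the counts of an inducible to a standard catalytic subunit of the proteasome (y axis, each panel spans 1 log2 unit) in the 12 libraries by dose of IPA, with group means and SD (n = 4). The 3 groups overlap in all panels, and the largest difference between group means is −0.14, between 50 µM and 10 µM in Psmb10 over Psmb7.

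Nlrc5 had 18.6, 20.3, 15.1 and 11.5 CPM in vehicle, 13.6, 16.7, 18.6 and 21.1 CPM at 10 µM, and 16.6, 20.7, 16.3 and 15.1 CPM at 50 µM. Its level was lowest in the low-slope library of vehicle and of 10 µM. The log2 fold changes were 0.090 at 10 µM (95% interval −0.30 to 0.48) and 0.076 at 50 µM (95% interval −0.27 to 0.42), intervals wide enough to hold the change of H2-T23. The direction of Nlrc5 at 50 µM turned without vehicle replicate 4 (−0.060), without 50 µM replicate 2 (−0.037) and without the 3 libraries of low slope (−0.038).

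Class I heavy chains outside the 10 were examined as a list of 16, of which 12 were tested. At 50 µM, 5 of the 12 were higher than in vehicle and 1 was lower, against 7% and 6.5% of all genes, and the median of the list was 0.13. H2-Q6 and H2-Q7 belong to the Qa-2 group of non-classical chains. H2-Q6 had 9.04, 9.58, 11.2 and 10.9 CPM in vehicle, 11.0, 11.7, 11.9 and 12.3 CPM at 10 µM, and 18.9, 18.1, 26.6 and 22.3 CPM at 50 µM. H2-Q7 had 4.01, 8.43, 7.21 and 7.20 CPM in vehicle, 8.01, 7.70, 8.69 and 8.43 CPM at 10 µM, and 13.3, 12.3, 20.2 and 19.2 CPM at 50 µM. In both genes every 50 µM library lay above every other library. The rise against vehicle was 1.08 on the log2 scale in H2-Q6 (SE 0.13, edgeR adjusted p = 0.000189) and 1.28 in H2-Q7 (SE 0.22, edgeR adjusted p = 0.00169), and against 10 µM it was 0.87 and 0.99. Both genes passed in all 18 alternatives of both comparisons. In stretches of 50 bases, 32% of H2-Q6 was also present in another gene, most often H2-Q7, and 26.4% of H2-Q7 was, most often in H2-Q10, so the split of reads among these genes is uncertain. The same share was 9.63% in H2-K1, 12.8% in H2-D1 and 13.6% in H2-T23.

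H2-T22 and H2-T10 encode non-classical chains that some γδ T cell receptors recognise. H2-T22 had 37.0, 38.7, 35.1 and 45.6 CPM in vehicle and 48.2, 46.9, 58.5 and 48.1 CPM at 50 µM, with no overlap. Its rise was 0.37 on the log2 scale (SE 0.10, edgeR adjusted p = 0.0265). H2-T10, at 0.795 to 2.75 CPM in vehicle and 3.08 to 4.22 CPM at 50 µM, had a log2 fold change of 1.03 (SE 0.30, edgeR adjusted p = 0.0366). The genes share 1124 stretches of 50 bases with each other, about 32.9% of H2-T10 and 34.5% of H2-T22 being shared with some gene, so their counts too are uncertain. Mr1, which presents vitamin B metabolites to MAIT cells, had 6.73 to 7.95 CPM in vehicle and 8.43 to 12.98 CPM at 50 µM (log2 fold change 0.55, edgeR adjusted p = 0.0281). H2-T22 and Mr1 did not pass without vehicle replicate 1 or 3 or 50 µM replicate 3 or 4, and H2-T10 not without any of these or 50 µM replicate 1 or 2, with adjusted p up to 0.0945, 0.0972 and 0.101. The number of heavy chains called higher at 50 µM was 2 without vehicle replicate 1 or 3 or 50 µM replicate 3 or 4, and 3 without the 3 libraries of low slope, where H2-T10 and Mr1 did not pass (log2 fold changes 0.71 and 0.47, edgeR adjusted p = 0.071 and 0.078).

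H2-M2, a further non-classical heavy chain gene, moved the other way. It had 11.5, 10.4, 20.1 and 9.74 CPM in vehicle, 13.5, 13.4, 12.1 and 11.6 CPM at 10 µM, and 4.98, 6.08, 4.86 and 4.03 CPM at 50 µM. All 50 µM libraries lay below all others, with log2 fold changes of −1.36 against vehicle (SE 0.22, edgeR adjusted p = 0.00143) and −1.33 against 10 µM (SE 0.14, edgeR adjusted p = 8.46e-06), and the gene passed in all 18 alternatives of both. Between the doses, H2-Q6, H2-Q7, H2-T10 and H2-T22 were higher at 50 µM and H2-M2 lower, against 7.52% and 7.85% of all genes. Of these, H2-T22 passed in 1 of the 8 fits that left out a library, that without 10 µM replicate 1, and H2-T10 in 17 of the 18 alternatives, not with all 12 libraries in the fit (adjusted p = 0.0528, edgeR). At 10 µM none of the 12 chains passed edgeR's, DESeq2's or limma-voom's test as higher, against 0.329%, 1.46% and 0.336% of genes tested. None had an unadjusted p under 0.05 in edgeR's test, as against 8.78% of all genes.

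Cell type markers moved with dose as well. Of the 5 myeloid markers, whose sum was highest at 50 µM, Itgam and Csf2rb were called higher than in vehicle (log2 fold changes 0.31 and 0.34) and Ptprc, Spi1 and Csf2ra did not pass (−0.12, −0.12 and 0.050). The 4 B cell markers summed to 14.9 to 20.9 CPM in vehicle, 18.2 to 30.2 CPM at 10 µM and 30.7 to 47.5 CPM at 50 µM, and the 7 dendritic cell markers to 83.9 to 97.6, 88.2 to 97.7 and 105 to 133 CPM, of which Ccr7 alone made up 60.5 to 103 CPM. The 8 neutrophil markers summed to 20000 to 28200, 18500 to 21400 and 14000 to 19600 CPM, and the 6 markers of monocytes and macrophages to 2100 to 2590, 2470 to 2680 and 1960 to 2160 CPM. The summed B cell and dendritic cell markers at 50 µM were thus above both other groups, like H2-Q6 and H2-Q7, and the summed neutrophil markers below vehicle. All 4 B cell markers were called higher than in vehicle at 50 µM (7% of all genes), and 5 of the 8 neutrophil markers were called lower (6.5% of all genes, edgeR), while Ly6g, S100a8 and S100a9 did not pass (log2 fold changes 0.24, −0.37 and −0.37). Of the 7 dendritic cell markers, Ccr7, Zbtb46 and Clec9a were called higher than in vehicle and only Ccr7 higher than at 10 µM, whereas Flt3, Siglech, Xcr1 and Cd209a did not pass (0.017, 0.17, −0.070 and −0.97 against vehicle). Among the monocyte and macrophage markers, Adgre1 was called higher and Csf1r and Ccr2 were called lower than in vehicle. The part of these cells in the changes of heavy chain genes was not tested.

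**Figure D5:**
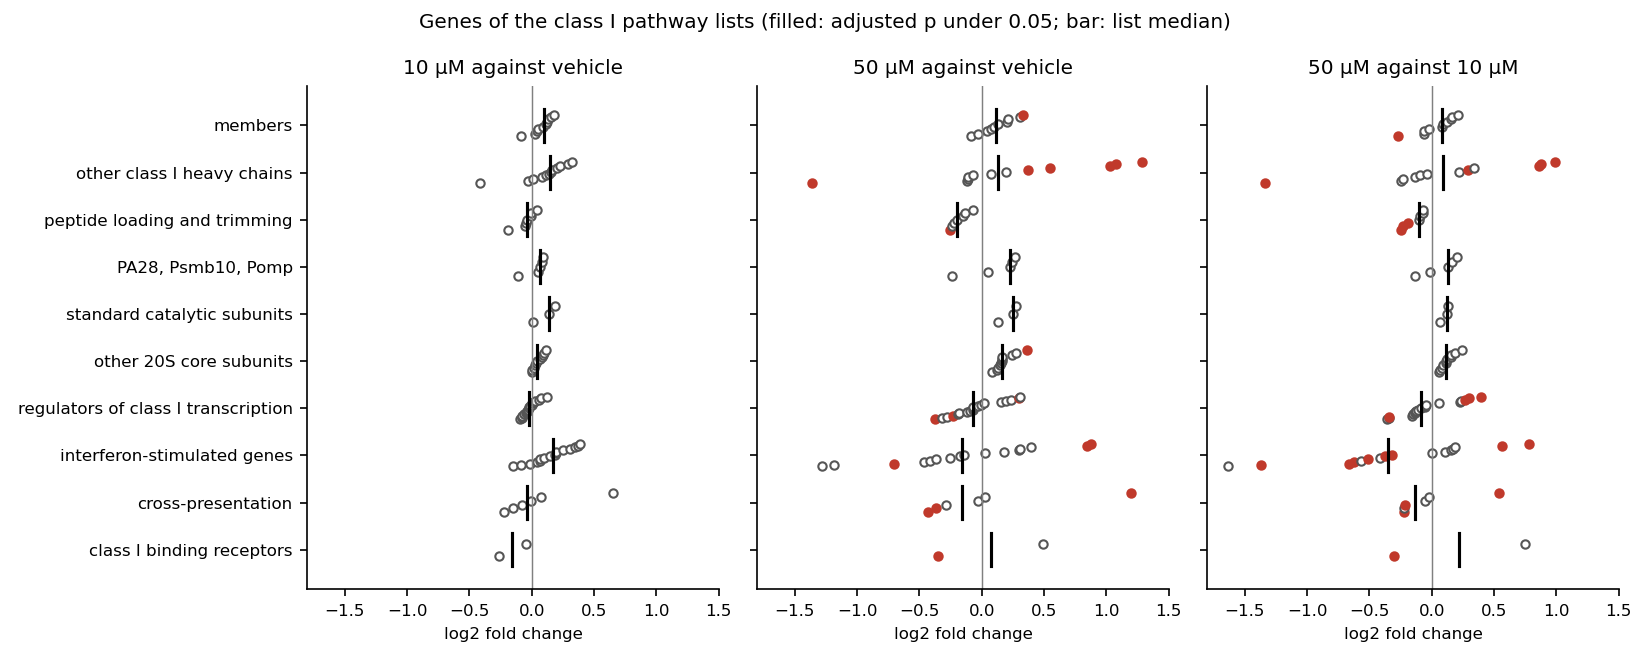
Log2 fold change (x axis) of each tested gene in the lists of the class I pathway (y axis) in the 3 comparisons, 4 libraries a group. Filled points passed an adjusted p of 0.05 over all genes and bars are list medians. At 50 µM the heavy chains spread from −1.36 (H2-M2) to 1.28 (H2-Q7), while the 7 loading and trimming genes all lie below 0.

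The 7 genes that assist loading and trim peptides, other than the members, all had log2 fold changes below 0 at 50 µM in both comparisons, with medians of −0.20 against vehicle and −0.10 against 10 µM, where 51.8% and 51.4% of all genes were above 0. Against vehicle 1 of them was called lower (6.5% of all genes), Tapbpl, a tapasin-related peptide editor, which had 28.5 to 30.6 CPM in vehicle and 23.3 to 25.7 CPM at 50 µM (log2 fold change −0.25, edgeR adjusted p = 0.0461). Tapbpl passed in 2 of the 8 fits that left out a library, those without vehicle replicate 4 and without 50 µM replicate 3. Between the doses 3 of the 7, Calr, Canx and Erap1, were lower at 50 µM (7.85% of all genes). Calr encodes calreticulin, a chaperone of the loading complex, and had 2028, 2071, 1865 and 1859 CPM at 10 µM and 1788, 1674, 1630.0 and 1547 CPM at 50 µM. Its log2 fold change was −0.23 (adjusted p = 0.0193, edgeR). Canx, which encodes the related chaperone calnexin, had 717 to 734 CPM at 10 µM and 574 to 678 CPM at 50 µM, and Erap1, which trims peptides in the endoplasmic reticulum, had 107 to 117 and 89.3 to 98.1 CPM. In all 3 genes the doses did not overlap, and the log2 fold changes of Canx and Erap1 were −0.19 (adjusted p = 0.0409, edgeR) and −0.24 (adjusted p = 0.0152, edgeR). Erap1 passed in all 8 fits that left out a library and Calr in 6, being lost without 10 µM replicate 2 and without 50 µM replicate 4 (adjusted p = 0.0804 and 0.0777, edgeR). Of these 8 fits Canx passed only in that without 50 µM replicate 1, and it did not pass without the 3 libraries of low slope (−0.15, edgeR adjusted p = 0.0889). Against vehicle the log2 fold changes of Calr, Canx and Erap1 at 50 µM were −0.24, −0.22 and −0.20 and did not pass. DESeq2, or a fit of all 12 libraries, called 4 of the 7 genes lower than in vehicle at 50 µM, and 8.67% and 8.61% of all genes.

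Of the 5 genes of the proteasome activator PA28, Psmb10 and the assembly factor Pomp, none passed in edgeR's test at 50 µM, and 4 had an unadjusted p under 0.05, as did 27.9% of all genes. Psme1, which encodes an interferon-inducible PA28 subunit, had 113 to 136 CPM in vehicle and 138 to 165 CPM at 50 µM (log2 fold change 0.26, edgeR adjusted p = 0.0564). Psme3, which encodes the nuclear PA28 subunit, had a log2 fold change of −0.24 (adjusted p = 0.0527, edgeR). Neither passed, but Psme1 did in 7 of the 18 alternatives, among them those without vehicle replicate 4 (0.32, edgeR adjusted p = 0.00979) and without the 3 libraries of low slope (0.25, edgeR adjusted p = 0.0118). Psme3 passed in 10 of 18, among them those without vehicle replicate 2 or 50 µM replicate 1 (edgeR adjusted p = 0.0365 and 0.0372), and in all 18 both genes kept their sign.

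Among 19 regulators of class I transcription, 1 was higher and 2 were lower at 50 µM than in vehicle, and 3 were higher and 1 lower than at 10 µM, while 13.5% and 15.4% of all genes passed in these comparisons. The counts of the list are thus near those shares, and the genes below are given singly. Jak2, a kinase of the interferon-γ receptor, rose by 0.30 against vehicle (adjusted p = 0.0154, edgeR) and by 0.30 against 10 µM (adjusted p = 0.00476, edgeR). Irf1, a transcription factor induced by interferon-γ that acts on class I promoters, had 40.1, 43.6, 39.0 and 39.8 CPM in vehicle, 37.8, 38.93, 37.3 and 38.1 CPM at 10 µM and 41.9, 48.3, 57.4 and 51.7 CPM at 50 µM. Its log2 fold change was 0.39 against 10 µM (adjusted p = 0.00655, edgeR), with no overlap, and 0.30 against vehicle (adjusted p = 0.0506, edgeR), where 1 vehicle library exceeded 1 library at 50 µM. The subunits of NF-Y, which binds the Y box, went apart between the doses, with Nfya 0.27 higher (adjusted p = 0.00797, edgeR) and Nfyc 0.34 lower on the log2 scale (−0.34, edgeR adjusted p = 0.00603). Nfyc was also lower than in vehicle (−0.37, edgeR adjusted p = 0.00632), as was Creb1, which encodes a factor that binds the X2 element (−0.23, edgeR adjusted p = 0.0381). Creb1 passed in 2 of the 8 fits that left out a library, those without vehicle replicate 4 or 50 µM replicate 1. The Jak2 call against vehicle was lost without 50 µM replicate 2 (adjusted p = 0.067, edgeR), and those of Irf1, Nfya and Nfyc between the doses held in all 8.

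Of 18 interferon-stimulated genes outside class I presentation, 16 were tested. At 50 µM, 2 were higher than in vehicle and 1 was lower, against 7% and 6.5% of all genes, and 2 were higher and 6 lower than at 10 µM, against 7.52% and 7.85%. Usp18, which curbs interferon signalling, rose by 0.87 against vehicle (adjusted p = 0.00286, edgeR) and by 0.57 against 10 µM (adjusted p = 0.014, edgeR), and Mx1, an antiviral GTPase, by 0.85 (adjusted p = 0.038, edgeR) and 0.78 (adjusted p = 0.00513, edgeR). The Mx1 call against vehicle held in 2 of the 8 fits that left out a library, those without vehicle replicate 2 or 4, and was lost without the 3 libraries of low slope (0.55, edgeR adjusted p = 0.0579). That of Mx1 against 10 µM was lost with all 12 libraries in the fit (adjusted p = 0.057, edgeR). The Usp18 call against 10 µM was lost without 50 µM replicate 2 (adjusted p = 0.06, edgeR). Ifit2, Ifit3, Rsad2 and Oasl2, antiviral effectors, were lower at 50 µM than at 10 µM by log2 fold changes of −0.62, −1.37, −0.66 and −0.51 (adjusted p from 0.0091 to 0.0127, edgeR), and each held in all 8 such fits. Against vehicle only Ifit2 of these 4 passed (−0.70, edgeR adjusted p = 0.00618). Ifit3 was near the floor, with 1.16 to 2.18 CPM at 10 µM and 0.42 to 0.825 CPM (10 to 22 counts) at 50 µM. The median of the list was 0.17 at 10 µM and −0.16 at 50 µM against vehicle, and at 10 µM none passed, with 3 at an unadjusted p under 0.05 (8.78% of all genes).

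Among 6 genes of cross-presentation, the loading of class I molecules with engulfed antigen, 1 was higher and 2 were lower at 50 µM than in vehicle, against 7% and 6.5% of all genes. Batf3, a transcription factor of cross-presenting dendritic cells, rose by 1.20 on the log2 scale at 50 µM (edgeR adjusted p = 3.55e-05). It had 5.51 to 7.30 CPM in vehicle, 8.56 to 10.8 CPM at 10 µM and 13.2 to 15.8 CPM at 50 µM, with no overlap between any of the groups, and its log2 fold change at 10 µM was 0.65 (adjusted p = 0.055, edgeR). Clec9a and Xcr1, surface markers of the dendritic cells that depend on Batf3, were at or under 2.88 and 0.87 CPM in every library. Cybb, the phagosomal oxidase, and Rab27a, which brings it to the phagosome, were lower at 50 µM than in vehicle by log2 fold changes of −0.36 and −0.43 (adjusted p = 0.0028 and 0.00451, edgeR). Pirb, an inhibitory receptor of myeloid cells that binds class I molecules, was lower at 50 µM by −0.35 (adjusted p = 0.0172, edgeR) and passed in 6 of the 8 fits that left out a library, not in those without 50 µM replicate 1 or 4 (adjusted p = 0.0512 and 0.0594, edgeR). The other gene listed with it, Lilrb4a, had 40.55 to 215.7 CPM in vehicle, 47.8 to 142 CPM at 10 µM and 100.5 to 194.2 CPM at 50 µM, and its log2 fold changes of 0.49 against vehicle (adjusted p = 0.402, edgeR) and 0.75 against 10 µM (adjusted p = 0.0581, edgeR) did not pass.

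The genes whose log2 CPM followed H2-K1 most closely over the 12 libraries were Sdhc, Rpl28 and Rpl29 (Pearson r of 0.978, 0.971 and 0.965), and those closest to Tap1 were Uqcrq, Drap1 and Tspan31 (0.977, 0.972 and 0.971) out of the 12606 genes whose mean reached 1 CPM. None of these 6 is one of the 10 genes. The points share their libraries and the slope on exon length, and the values are a description only.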

How the data were processed

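RNA of 12 samples of cultured bone marrow cells was sequenced on an AVITI instrument after Illumina Stranded mRNA preparation. Per the study's methods, the authors used Atropos for trimming, hisat2 2.2.1 for alignment to mm10, and featureCounts 2.0.1 for the number of reads per Ensembl gene of GRCm38. The deposited values are raw counts, without normalization or filter. The strand setting is not given in the sources used here. Groups were taken from the treatment label. For 10 µM replicate 3, whose title duplicates another one, the library name gave the number. No library was a copy of another within its group.

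A gene was kept where 2 or more of 12 libraries exceeded 0.5 CPM. Each pair of groups was fitted on its 8 libraries with edgeR 4.0.16 in R 4.3.3 (TMM, glmQLFit and glmQLFTest, no replicate block), Benjamini-Hochberg adjustment over all 14894 genes and a threshold of 0.05. The scripts were tested on simulated data. CPM are TMM-scaled over 12 libraries, and RPKM divide them by the GENCODE M21 exon length. Ratios of subunits used a pseudocount of 0.5 counts and exact permutation tests. Each of the 10 genes had at least 290 counts in every library.

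The 10 genes, the 9 lists of other genes of the pathway (87 genes) and the tests were chosen with earlier results of these data known. Named genes are the 10, and from each list up to 6 called genes with the smallest adjusted p, or the 2 with the highest mean CPM where none was called. Alternatives were DESeq2 1.42.0, its size factors used in edgeR, limma-voom (limma 3.58.1), filters of none or of 10 counts in each library, all 12 libraries in the fit, a replicate block and leaving out each library in turn. An offset for exon length, the length slope as a covariate and omission of the library of lowest slope from each group were added after seeing the data. Sequences are RefSeq's on GRCm38.p6.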

Additional observations from a re-analysis of the deposited data

Results flagged for a closer look

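The level of H2-T23 in vehicle replicate 4, 87.6 CPM, stood apart from the other vehicle libraries, which lay between 71.0 and 73.7 CPM. The gap to the nearest of them was 0.841 of the range of the group, above Dixon's 95% critical value for 4 samples. It was the only one of 39 groups of 4 values examined that exceeded this value, and chance alone exceeds it in about 1 of 20 groups. This library also had the lowest slope of counts on exon length, and the part of that slope in the value was not tested. Without it, the log2 fold change of H2-T23 at 50 µM was 0.41 (edgeR adjusted p = 0.00187) in place of 0.33.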

How the results depend on the processing

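Over 30 results (10 genes in 3 comparisons) and 540 alternatives, 489 kept their direction and their side of the threshold, 13 no longer passed, 21 newly passed and 17 turned direction, all of the last in Tapbp, Nlrc5 and B2m. Tapbp turned at 10 µM with the slope covariate (−0.0027), at 50 µM without the 3 libraries of low slope (0.0011), and when 1 library was left out (from −0.02 to 0.0596 at 10 µM and from −0.0714 to 0.0021 at 50 µM). Nlrc5 turned without the 3 libraries at 50 µM (−0.038), and between the doses with limma-voom (0.0051) and with the slope covariate (0.013). With 1 library left out, Nlrc5 ran from −0.047 to 0.21 at 10 µM, from −0.0597 to 0.19 at 50 µM and from −0.12 to 0.082 between the doses, and B2m at 50 µM from −0.16 to 0.0067. The causes were not tested.

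At 10 µM, 61 genes of the transcriptome passed, against 250 with DESeq2, 150 with no filter, 118 with all 12 libraries in the fit, 101 with the offset, 506 with the slope covariate, 147 without the 3 libraries and 4 to 122 with 1 library left out. The slope covariate gave 3499 in place of 2010 genes at 50 µM and 3573 in place of 2289 between the doses. Leaving out 1 library gave 1248 to 2689 genes at 50 µM. Of the 10 genes, 1 passed at 50 µM, against 2 with DESeq2, at least 10 counts, all 12 libraries or the offset, 4 with the slope covariate, 3 without the 3 libraries, and 0 (without vehicle replicate 1, 2 or 3 or 50 µM replicate 2, 3 or 4) to 5 (without vehicle replicate 4) with 1 left out. The shares of all genes in these fits, in the same order, were 13.5%, then 17.1%, 15.9%, 16.4% and 16.1%, then 23.5% and 16.2%. They were 8.38% to 18.1% with 1 left out. Between the doses 1 passed, against 2 with DESeq2, at least 10 counts or the offset, 0 with all 12 libraries, 3 with the slope covariate, and 0 to 1 with 1 left out. The shares of genes tested here were 15.4%, then 19.4%, 17.9% and 19%, then 13.2% and 24%, and 10.8% to 15.2% with 1 left out.

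The labels do not say whether the replicate numbers pair the samples. The study used a repeated-measures test on flow cytometry of such cultures. Correlations of same-numbered deviations were −0.242 to 0.142. They cannot decide the question, because the libraries of low slope bear a different number in each group. With a replicate block, 3 genes of the transcriptome passed at 10 µM. At 50 µM 2 of the 10 genes did, against 12.3% of all genes, Psmb9 being added (0.31, edgeR adjusted p = 0.0429). Low counts limit H2-T10, H2-Q7 and Ifit3 more than the 10 genes.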
